A study of Mus musculus with 12 samples.

Results

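The genes described here are members of the BCL2 family, the proteins that hold a cell alive or commit it to apoptosis at the mitochondrion, measured in mouse thymocytes with and without stimulation of the T-cell receptor. The members were 9 named genes: Bcl2, Bcl2l1, Mcl1 and Bcl2a1d, which encode survival proteins, Bax and Bak1, which encode the pore-forming effectors, and Bcl2l11, Bad and Bid, which encode BH3-only proteins. A probe set (a group of short oligonucleotides on the array that reads 1 transcript) was taken where its annotation gave 1 of these symbols and no other. This found 13 probe sets for 7 of the 9 genes, out of 8252 genes with such a probe set: 3 for Bcl2, 2 for Bcl2l1, 1 for Mcl1, 3 for Bcl2l11, 1 for Bak1, 2 for Bad and 1 for Bid. Bax was not analysed here. Bcl2a1d had no probe set of its own, but 3 probe sets were annotated to several of the near-identical copies of the A1 gene, and these are described as readings of the Bcl2a1 copies together.

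Total RNA came from thymocytes of 6 female mice of 6 to 7 weeks, F1 of C57Bl/6 x 129Sv, and was hybridised to 12 Affymetrix arrays. The 4 control mice were 2 Med23+/+;Lck-Cre mice, which carry the Cre transgene with intact Med23, and 2 Med23flox/flox mice, which carry the floxed alleles without Cre. The 2 MED23 null mice were Med23flox/flox;Lck-Cre, so they share the transgene with the first control genotype and the alleles with the second. From each mouse, cells rested for 4 h and were then mock treated or exposed to plate-bound antibody against CD3 (αCD3) for 3 h, which gave 1 mock and 1 αCD3 array a mouse. MED23 is a subunit of Mediator, the complex that links transcription factors to RNA polymerase II. Lck-Cre acts in developing T-cells from a late double negative stage, its efficiency varied between animals, and the cells were total thymocytes, not a sorted population. In such a bulk sample, fewer cells of a type and less RNA per cell cannot be told apart.

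BCL2, BCL-XL (the product of Bcl2l1), MCL1 and A1 bind and restrain the BH3-only proteins and the effectors BAX and BAK. BH3-only proteins such as BIM (the product of Bcl2l11), BAD and BID tip this balance towards BAX and BAK, which then open pores in the outer mitochondrial membrane. In the thymus, BCL2 is high in double negative and mature single positive cells and low in double positive cells, MCL1 and BCL-XL keep immature cells alive, and BIM is needed for the death of thymocytes whose receptor binds self antigen strongly.

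The promoters of the genes that responded most to αCD3 are shown to set beside their readings, together with that of Bcl2l11, the BH3-only gene. Each is the 250 bases upstream of a RefSeq start site on GRCm38.p6, on the strand of the gene, at chr1:106714291-106714540 on the minus strand for Bcl2, chr2:128125788-128126037 on the plus strand for Bcl2l11, chr9:88731851-88732100 on the minus strand for Bcl2a1d and chr9:88956670-88956919 on the plus strand for Bcl2a1a. Capitals mark matches, on either strand, to TGANTCA (the AP-1 motif, which reads the same on both strands apart from its middle base) or to GCGNGGGCG (the EGR motif), and the 2 motifs did not overlap in these windows.
Bcl2: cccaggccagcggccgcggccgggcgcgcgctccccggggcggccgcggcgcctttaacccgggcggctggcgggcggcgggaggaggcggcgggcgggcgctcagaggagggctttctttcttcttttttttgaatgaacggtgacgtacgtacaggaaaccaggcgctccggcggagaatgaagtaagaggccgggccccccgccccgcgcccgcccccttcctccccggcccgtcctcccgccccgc
Bcl2l11: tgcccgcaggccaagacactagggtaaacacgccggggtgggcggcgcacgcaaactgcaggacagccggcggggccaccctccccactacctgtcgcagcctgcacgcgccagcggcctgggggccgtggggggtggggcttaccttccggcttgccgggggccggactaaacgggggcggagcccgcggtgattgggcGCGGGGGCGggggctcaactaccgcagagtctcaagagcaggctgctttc
Bcl2a1d: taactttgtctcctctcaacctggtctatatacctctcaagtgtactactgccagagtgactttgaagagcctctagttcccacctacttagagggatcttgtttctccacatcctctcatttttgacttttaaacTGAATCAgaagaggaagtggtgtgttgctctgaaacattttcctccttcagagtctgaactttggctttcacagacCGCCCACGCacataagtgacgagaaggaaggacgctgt
Bcl2a1a: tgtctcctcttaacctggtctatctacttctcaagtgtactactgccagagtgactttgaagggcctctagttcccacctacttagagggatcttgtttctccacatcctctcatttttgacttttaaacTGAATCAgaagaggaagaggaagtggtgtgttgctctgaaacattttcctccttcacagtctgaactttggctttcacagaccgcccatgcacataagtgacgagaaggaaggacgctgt

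The Bcl2 window held neither motif, nor the ETS motif CCGGAAGT, nor the NF-κB consensus. The Bcl2l11 window held 1 EGR match, from 50 to 42 bases before the start site, and the window of a second start site of this gene, at chr2:128127325-128127574, held no match to any of the 4 motifs. In Bcl2a1d an AP-1 match lay from 114 to 108 bases and an EGR match from 38 to 30 bases before the start site. The Bcl2a1a window shared 238 of 250 aligned columns with that of Bcl2a1d, 95.2%, and kept the AP-1 match, while the stretch that held the EGR match in Bcl2a1d did not match the motif. Of the other copies, the Bcl2a1b window held both motifs and that of Bcl2a1c the EGR motif alone. Among all 32851 promoter windows of this length, 6.75% held the AP-1 motif, 4.7% the EGR motif, 2.88% the ETS motif and 7.25% the NF-κB consensus, so these matches are a description of the letters only.

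Values are MAS5 signals, linear array brightness scaled to a common trimmed mean, which can be compared between arrays for 1 probe set but not between probe sets. Fold changes were computed within each mouse as αCD3 over mock, and limma tested log2(signal + 50), which understates the change of dim probe sets. Of 12488 probe sets, 9478 had a mean signal of at least 100 in 1 of the 6 conditions and were tested, and all 13 member probe sets were among them. The Med23 probe set read 424, 368, 288 and 381 on the control mock arrays and 268 and 207 on the null ones, and 309.9, 425, 489 and 381 against 252 and 239 after αCD3. The null arrays were the lowest in each treatment, though limma made no call (adjusted p = 0.621 and 0.738), and whether this probe set reads the deleted exons was not analysed here. As a check of the stimulus, Nr4a1, Cd5 and Egr2, known targets of receptor signalling, rose in control mice, by 3.41, 2.67 and 3.01 on the log2 scale (limma adjusted p = 0.000419, 0.000478 and 0.00808). These genes also rose in null mice, but by less than in any control mouse. The αCD3 over mock ratios of Nr4a1 were 8.87 and 8.33 in null mice against 9.88 to 14.8 in controls. Those of Cd5 were 4.67 and 4.17 against 6.08 to 7.23, and of Egr2 3.68 and 3.01 against 5.89 to 23.9. Egr1, the other check gene, gave 3.59 and 1.03 against 4.27 to 7.18. The difference in response was called for none of the 4. On the αCD3 array of Med23flox mouse 1, the lower quartile of signal was 85.3 against 50.02 to 58.4 elsewhere and the mean correlation with the other arrays 0.905 against 0.937 to 0.945, so some of the counts below are also given without that mouse.

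In control mice limma called a rise after αCD3 at 1 of the 3 probe sets of Bcl2 and 1 of those shared by the Bcl2a1 copies. The bright probe set of Bcl2l1 and that of Mcl1 stayed near a ratio of 1. Bcl2 98868_at passed the limma test, with 3.88 ± 0.913 times its mock signal (SD, n = 4), as did Bcl2a1 102914_s_at, with 3.33 ± 0.582 times. In null mice the mean ratios of the same probe sets were 1.51 ± 0.0945 and 1.54 ± 0.186 (SD, n = 2), and neither mouse of the null genotype reached the lowest control. These differences between genotypes did not pass the limma test after adjustment. The 2 probe sets are shown because they passed in control mice, and the gap was not shared by others of the same genes. Bcl2 98869_g_at, with mean ratios of 5.25 in controls and 4.87 in null mice, rose in every mouse and the genotypes overlapped. So did Bcl2a1 93869_s_at, with 2.50 and 1.87. Bcl2 98868_at met the minimum signal only in the control αCD3 groups where it was high, and its call was lost when any 1 mouse was left out. Of the 13 member probe sets it was the 1 called in control mice, beside 0.148% of all tested probe sets, and 0 in null mice, beside 0.0317%.

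**Figure D1:**
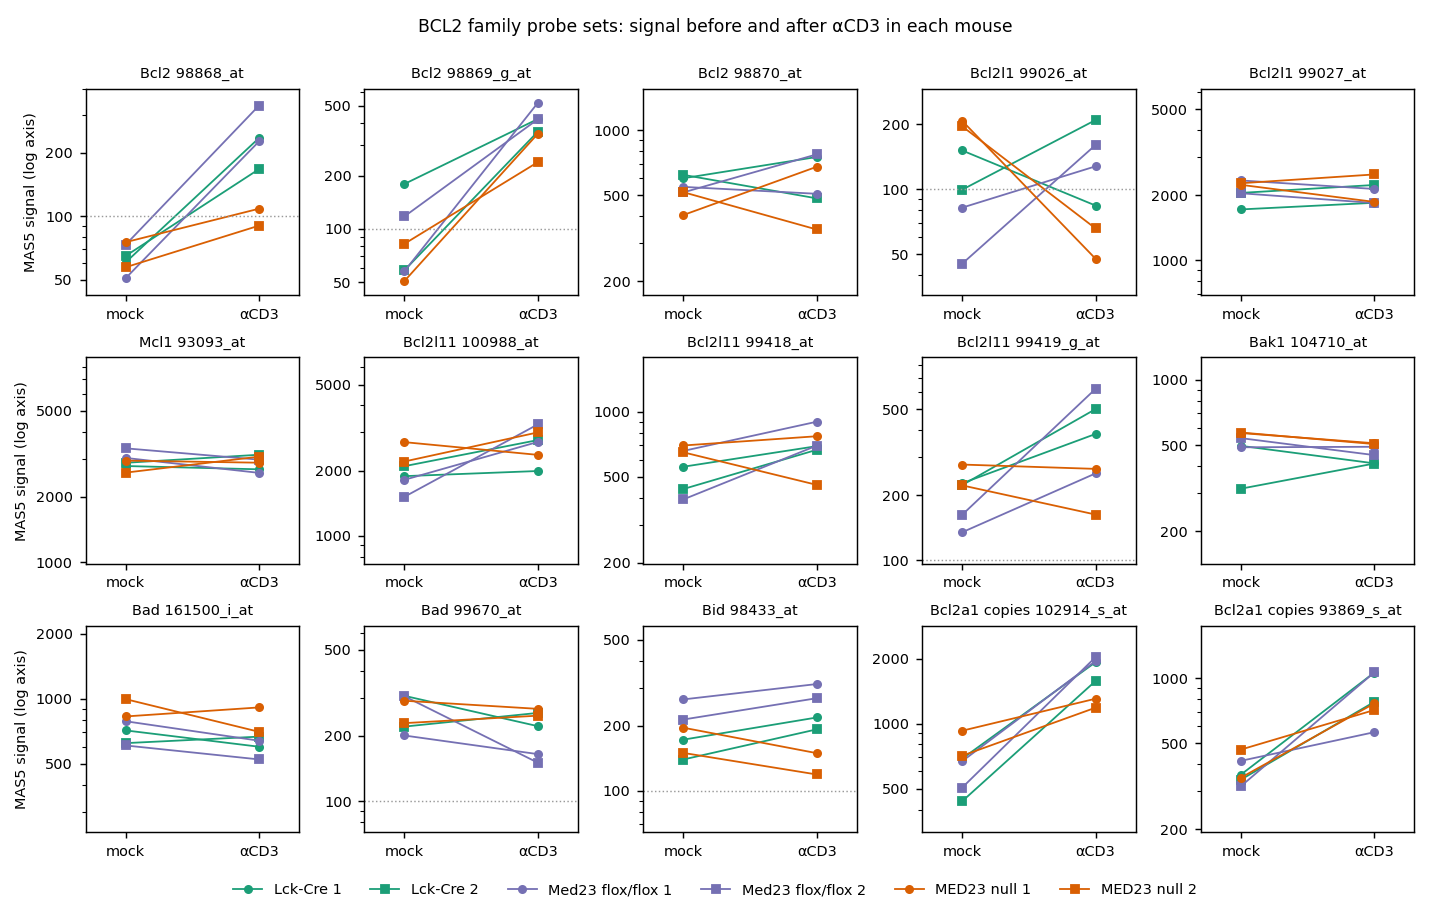
MAS5 signal (log axis) of the 13 member probe sets and the 2 tested Bcl2a1 probe sets on the mock and αCD3 array of each mouse, with a line for each mouse. Colours mark the genotype, circles and squares the replicate number, and the dotted line a signal of 100. Bcl2 98868_at read between 167 and 334 in the controls after αCD3, and 108 and 90.1 in the null mice.

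Bcl2, the founding survival gene, was read by 3 probe sets. At 98868_at the mock signals were 60.3 and 64.7 in the Lck-Cre mice, 50.7 and 73.1 in the Med23flox mice and 75.2 and 57.2 in the null mice. After αCD3 they were 234 and 167, 226 and 334, and 108 and 90.1. The αCD3 array was above the mock array in all 4 control mice, and the null arrays, which overlapped the controls in mock cells, lay below every control array after αCD3. The αCD3 over mock ratio was 3.89, 2.58, 4.46 and 4.57 in the controls and 1.44 and 1.58 in the null mice. The control response was 1.35 on the log2 scale (SE 0.15, 95% interval 0.99 to 1.70, limma adjusted p = 0.036) and that of the null mice 0.36 (SE 0.21, adjusted p = 0.999). The test of the difference in response gave -0.98 (95% interval -1.59 to -0.37, adjusted p = 0.809). This probe set reached the minimum signal only in the αCD3 arrays of the control genotypes, 2 of the 6 conditions, so it entered the test through the groups where it was high. The call in control mice was lost when any 1 of the 6 mice was left out, with adjusted p from 0.0781 to 0.218.

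After αCD3 the Bcl2 98868_at signal of the control arrays was 2.42 times that of the null arrays on average. The null minus control difference was -0.93 on the log2 scale (SE 0.25, adjusted p = 0.605). Against Lck-Cre alone it was -0.74 (95% interval -1.39 to -0.09, adjusted p = 0.940), and against Med23flox alone -1.13 (95% interval -1.78 to -0.48, adjusted p = 0.555). The null arrays lay below both control genotypes, with the wider gap to Med23flox. In mock cells the null minus control difference was 0.05 (95% interval -0.32 to 0.42).

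The second Bcl2 probe set, 98869_g_at, read 179.9 and 58.3, 57.6 and 118, and 50.7 and 82.4 in mock cells of the Lck-Cre, Med23flox and null mice. After αCD3 it read 420.1 and 356, 519 and 419, and 347 and 239. It was under the minimum signal in the Med23flox and null mock groups, with means of 87.7 and 66.6, so its ratios there rest on dim mock values. The αCD3 signal was above mock in every mouse, with ratios of 2.34, 6.11, 9.01 and 3.56 in controls and 6.84 and 2.9 in null mice, and the ratios of the genotypes overlapped. The control response was 1.71 on the log2 scale (SE 0.25, adjusted p = 0.0836), that of the null mice 1.55 (SE 0.35, adjusted p = 0.548) and the difference -0.15 (95% interval -1.19 to 0.88). After αCD3 the null arrays were again the lowest, at -0.49 on the log2 scale (95% interval -1.01 to 0.03, adjusted p = 0.838). The first and second probe sets thus shared a higher αCD3 signal in controls than in null mice. Whether they shared a smaller response in null mice was not settled, as the interval of the second also held the -0.98 of the first.

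The third, 98870_at, did not follow them. It read 598 and 620.5, 546 and 514, and 404 and 516 in mock cells, and 750.3 and 483, 507 and 772, and 676 and 347 after αCD3. Within every genotype the αCD3 signal was above mock in 1 mouse and below it in the other, and the control response was 0.10 on the log2 scale (95% interval -0.45 to 0.66). This lay 1.24 and 1.60 log2 units below the responses of 98868_at and 98869_g_at. Over the 12 arrays its log2 signal correlated with theirs at r = 0.431 and 0.327, against 0.849 between those probe sets, as a description over arrays that share mice and treatments. Which transcript end or isoform each probe set reads was not analysed here.

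The Bcl2a1 copies encode A1, a short-lived survival protein of lymphoid and myeloid cells. The probe set 102914_s_at is annotated to Bcl2a1a, Bcl2a1b, Bcl2a1c, Bcl2a1d and also Mthfs, so its value cannot be given to 1 of them. In mock cells it read 687 and 436 in Lck-Cre, 669 and 505 in Med23flox and 926 and 709 in null mice. After αCD3 it read 1922 and 1574, 1945 and 2029, and 1303 and 1184. The null arrays were above every control before stimulation and below every control after it. The αCD3 over mock ratios were 2.8, 3.61, 2.91 and 4.02 in controls and 1.41 and 1.67 in null mice.

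The control response of 102914_s_at was 1.63 on the log2 scale (SE 0.13, 95% interval 1.31 to 1.95, limma adjusted p = 0.00976). The null response was 0.59 (SE 0.19, adjusted p = 0.796) and the difference -1.05 (95% interval -1.60 to -0.49, adjusted p = 0.809). The null minus control difference was 0.49 in mock cells (adjusted p = 0.697) and -0.56 after αCD3 (adjusted p = 0.683). It ran the same way against each control genotype, at 0.52 and 0.45 in mock cells against Lck-Cre and Med23flox and at -0.47 and -0.66 after αCD3. Leaving out Lck-Cre mouse 1, Lck-Cre mouse 2 or Med23flox mouse 2 ended the call in control mice, with adjusted p of 0.0815, 0.0804 and 0.0810, and leaving out any other mouse did not.

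The other A1 probe set, 93869_s_at, is annotated to Bcl2a1a, Bcl2a1c and Bcl2a1d. It read 357 and 339, 414 and 316, and 346 and 467 in mock cells of the 3 genotypes, and 1061 and 776, 562 and 1063, and 763 and 711 after αCD3. The αCD3 signal was above mock in all 6 mice, and the ratios of control mice (2.97, 2.29, 1.36 and 3.37) and null mice (2.21 and 1.52) overlapped. The control response was 1.13 (SE 0.22, adjusted p = 0.169) and the difference between genotypes -0.34 (95% interval -1.24 to 0.56). The tested probe sets of the A1 copies thus shared their direction in controls. Whether they shared the gap between genotypes was not settled, as this interval also held the -1.05 of 102914_s_at. The remaining A1 probe set, 102913_at, stayed under the minimum signal in every condition, at no more than 67.3, and was not tested.

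Bcl2l1 encodes BCL-XL. Its bright probe set, 99027_at, read 1722 and 2053, 2344 and 2045, and 2238 and 2276 in mock cells, and 1848 and 2234, 2141 and 1843, and 1865 and 2499 after αCD3. The null arrays overlapped the range of the 4 controls in each treatment, and in mock cells they lay above both Lck-Cre arrays. The response in controls was -0.01 on the log2 scale (95% interval -0.32 to 0.29).

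The dim Bcl2l1 probe set, 99026_at, gave another picture. Its mock signals were 151, 99.5, 82.2 and 45.2 in controls and 208 and 196 in null mice, and its αCD3 signals 84.1, 209, 128 and 160.3 against 47.7 and 65.9. The null arrays were the highest in mock cells and the lowest after αCD3. In mock cells the null difference was 0.54 on the log2 scale against Lck-Cre and 1.17 against Med23flox. The ratio was 0.556, 2.1, 1.55 and 3.55 in controls and 0.23 and 0.337 in null mice, with a difference in response of -1.69 on the log2 scale (95% interval -2.82 to -0.55, adjusted p = 0.834). The probe set was over the minimum signal in 4 of the 6 conditions. It was under it in the Med23flox mock and null αCD3 groups, with means of 63.7 and 56.8, so the ratios of those mice rest on dim values. The correlation of its log2 signal with that of 99027_at over the 12 arrays was 0.0798.

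Mcl1, whose short-lived product is needed by thymocytes at several stages, read 2782, 2879, 3032 and 3359 in control mock cells and 2946 and 2592 in null ones. After αCD3 it read 2686, 3137, 2586 and 2977 against 2882 and 3074. The null arrays overlapped the range of the 4 controls in each treatment, and in mock cells they lay below both Med23flox arrays. In controls the response was -0.08 on the log2 scale (95% interval -0.38 to 0.21) and the difference between genotypes 0.19 (95% interval -0.32 to 0.70).

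**Figure D2:**
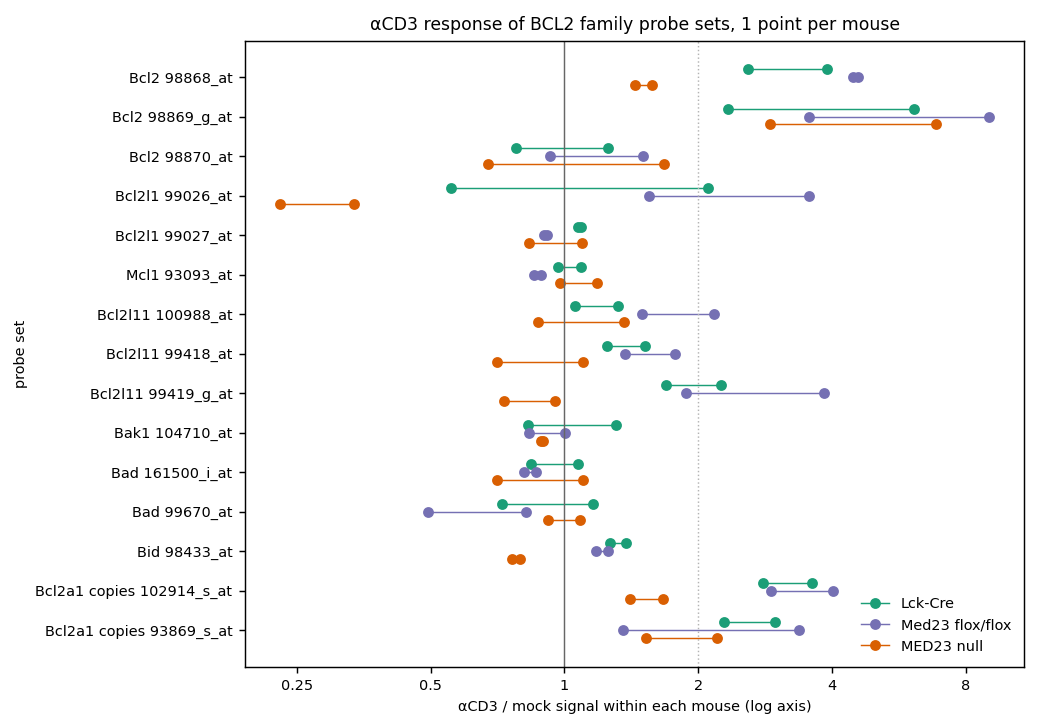
αCD3 over mock signal ratio (log axis) of each probe set, with 1 point per mouse and a line joining the mice of a genotype. The solid line marks a ratio of 1 and the dotted line a ratio of 2. The null points of Bcl2 98868_at (1.44 and 1.58) and Bcl2a1 102914_s_at (1.41 and 1.67) sit left of every control point, as do those of Bid, Bcl2l1 99026_at and of Bcl2l11 99418_at and 99419_g_at.

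Bcl2l11 encodes BIM, and its 3 probe sets were higher after αCD3 in all 4 control mice, although none passed the test. At 100988_at the mock signals were 1884, 2095, 1811 and 1511 in controls and 2706 and 2202 in null mice. After αCD3 they were 1989.6, 2767, 2712 and 3270.5 against 2363 and 3003. The null mock arrays lay above every control and the groups overlapped after αCD3. The response in controls was 0.53 on the log2 scale (95% interval 0.06 to 1.00, adjusted p = 0.598), with ratios from 1.06 to 2.16, and the null ratios were 0.873 and 1.36.

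At 99418_at the signals were 556, 438, 658 and 392 in control mock cells and 697 and 648 in null ones, and 692, 666, 898 and 696 against 769 and 458 after αCD3. The null arrays overlapped the range of the 4 controls in each treatment, and in mock cells they lay above both Lck-Cre arrays. The ratios of null and control mice did not overlap, with 1.25, 1.52, 1.37 and 1.77 in controls and 1.1 and 0.707 in null mice. Their response was 0.51 in controls (95% interval 0.15 to 0.86, adjusted p = 0.445) and the difference in response -0.67 (95% interval -1.28 to -0.05, adjusted p = 0.957).

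The largest gap of the 3 was at 99419_g_at. It read 227, 223, 135 and 162 in control mock cells and 278 and 222 in null ones, and 384, 501, 253 and 622 against 265 and 163 after αCD3. In mock cells the null difference was 0.12 on the log2 scale against Lck-Cre and 0.59 against Med23flox. The ratio was 1.69, 2.25, 1.87 and 3.83 in controls and 0.955 and 0.733 in null mice, so the controls were all above 1 and the null mice both below. The control response was 1.01 on the log2 scale (95% interval 0.55 to 1.47, adjusted p = 0.168), that of the null mice -0.21 (95% interval -0.85 to 0.44) and the difference -1.21 (95% interval -2.01 to -0.42, adjusted p = 0.809). After αCD3 the null minus control difference was -0.86 at this probe set, -0.28 at 99418_at and 0.01 at 100988_at, so the probe sets of this gene did not give 1 size for it.

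Bid, whose product is activated by cleavage and links death receptors to the mitochondrion, read 172, 139, 264 and 213 in control mock cells and 196 and 149.5 in null ones. After αCD3 it read 218, 192, 311 and 268 against 149 and 119. The null arrays overlapped the controls in mock cells and lay below all of them after αCD3. The ratio was 1.27, 1.38, 1.18 and 1.26 in controls and 0.762 and 0.795 in null mice, a narrow spread in each genotype. The control response was 0.27 on the log2 scale (95% interval 0.02 to 0.53, adjusted p = 0.615), the null response -0.27 (95% interval -0.64 to 0.09) and the difference -0.55 (95% interval -0.99 to -0.10, adjusted p = 0.955). After αCD3 the null minus control difference was -0.68 (SE 0.22, adjusted p = 0.683), with -0.47 against Lck-Cre and -0.89 against Med23flox.

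Bad encodes a BH3-only protein that binds BCL2 and BCL-XL and is held inactive by phosphorylation. At 161500_i_at it read 714, 623, 787 and 608 in control mock cells and 828 and 996 in null ones, and 599, 668, 639 and 524 against 911 and 703 after αCD3. The null arrays were above every control in both treatments, by 0.39 on the log2 scale in mock cells (95% interval -0.01 to 0.80, adjusted p = 0.675) and 0.38 after αCD3 (95% interval -0.08 to 0.83, adjusted p = 0.891). At 99670_at the mock signals were 307, 221, 201 and 305 against 291 and 229 and overlapped. The αCD3 signals of 222, 256, 165 and 150.4 against 267 and 248 overlapped over the 4 controls, with the null arrays above both Med23flox arrays. Neither Bad probe set was called for the αCD3 response in control mice, at -0.15 (95% interval -0.50 to 0.19) and -0.32 (95% interval -0.74 to 0.10).

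Bak1, the effector gene read here, gave 496, 314, 488 and 538 in control mock cells and 568 and 571 in null ones. After αCD3 it gave 411, 411, 491 and 449 against 509.6 and 505. The null arrays were the highest in each treatment and close to each other, at 0.31 on the log2 scale above the controls in mock cells (95% interval -0.22 to 0.84) and 0.19 after αCD3 (95% interval -0.21 to 0.58). Against Lck-Cre the mock difference was 0.48 and against Med23flox 0.14. The αCD3 response of the controls was -0.03 (95% interval -0.37 to 0.30).

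Set against all probe sets, the members' counts were as follows. The αCD3 signal was above mock in all 4 control mice for 6 of the 13 member probe sets (Bcl2 98868_at and 98869_g_at, the 3 of Bcl2l11 and that of Bid), beside 9.16% of all tested probe sets. The mean control ratio was at least 2 for 3 of them, beside 8.54%. These 6 probe sets come from 3 genes, and probe sets of 1 gene are not independent readings. Bcl2 98868_at is in these counts although it met the minimum signal only where it was high.

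Limma called none of the 13 in the test of the difference in response, in null minus control or in null minus either control genotype in either treatment, beside 0% of all tested probe sets in each. At an unadjusted p under 0.05 there were 6 of the 13 for the control response, beside 7.78% of all tested probe sets, 2 for the null response, beside 5.36%, and 5 for the difference in response, beside 5.13%. For null minus control there was 1 in mock cells, beside 7.40%, and 4 after αCD3, beside 6.16%. For null minus Lck-Cre there were 0 in mock cells, beside 7.30%, and 1 after αCD3, beside 4.83%. For null minus Med23flox there were 3, beside 7.34%, and 4, beside 7.72%. The control genotypes differed from each other in mock cells for 2 of the 13 at that level, beside 5.64%, and for none after adjustment, beside 0%. These were Bcl2l1 99026_at and Bcl2l11 99419_g_at, with Med23flox minus Lck-Cre at -0.63 and -0.47 on the log2 scale. Bcl2 98868_at, which met the minimum signal only in the control αCD3 groups, is in the counts for the control response and the difference in response. It is also in those for null minus control and null minus each control genotype after αCD3. Bcl2l1 99026_at, under the minimum signal in the Med23flox mock and null αCD3 groups, is in the counts for the null response and the difference in response, among others.

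In mock cells the null arrays lay above every control array for 4 of the 13 (Bcl2l1 99026_at, Bcl2l11 100988_at, Bak1 and Bad 161500_i_at), beside 9.27% of all tested probe sets, and below every control for 0, beside 8.44%. After αCD3 they lay below every control for 4 (Bcl2 98868_at and 98869_g_at, Bcl2l1 99026_at and Bid), beside 8.61%, and above for 2 (Bak1 and Bad 161500_i_at), beside 6.9%. The αCD3 over mock ratio of the null mice was below every control mouse for 5 (Bcl2 98868_at, Bcl2l1 99026_at, Bcl2l11 99418_at and 99419_g_at, and Bid), beside 7.36%, and above for 0, beside 6.02%. Bcl2 98868_at met the minimum signal only in the control αCD3 groups, so its place among the lower αCD3 signals and lower ratios is tied to how it entered. Bcl2l1 99026_at was under the minimum signal in the Med23flox mock and null αCD3 groups, so its place in these counts rests partly on dim values. Without Med23flox mouse 1 the count of lower ratios was again 5, beside 11.2% of all tested probe sets, and the counts were 6 above in mock cells, beside 14.2%, and 5 below after αCD3, beside 12.7%. The count of mean control ratios of at least 2 was then 4, beside 6.43%, with Bcl2l1 99026_at added, a probe set that was dim in Med23flox mock cells. The count with αCD3 above mock in every control mouse was again 6, beside 15%. That above every control after αCD3 was again 2, beside 11.7%.

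**Figure D3:**
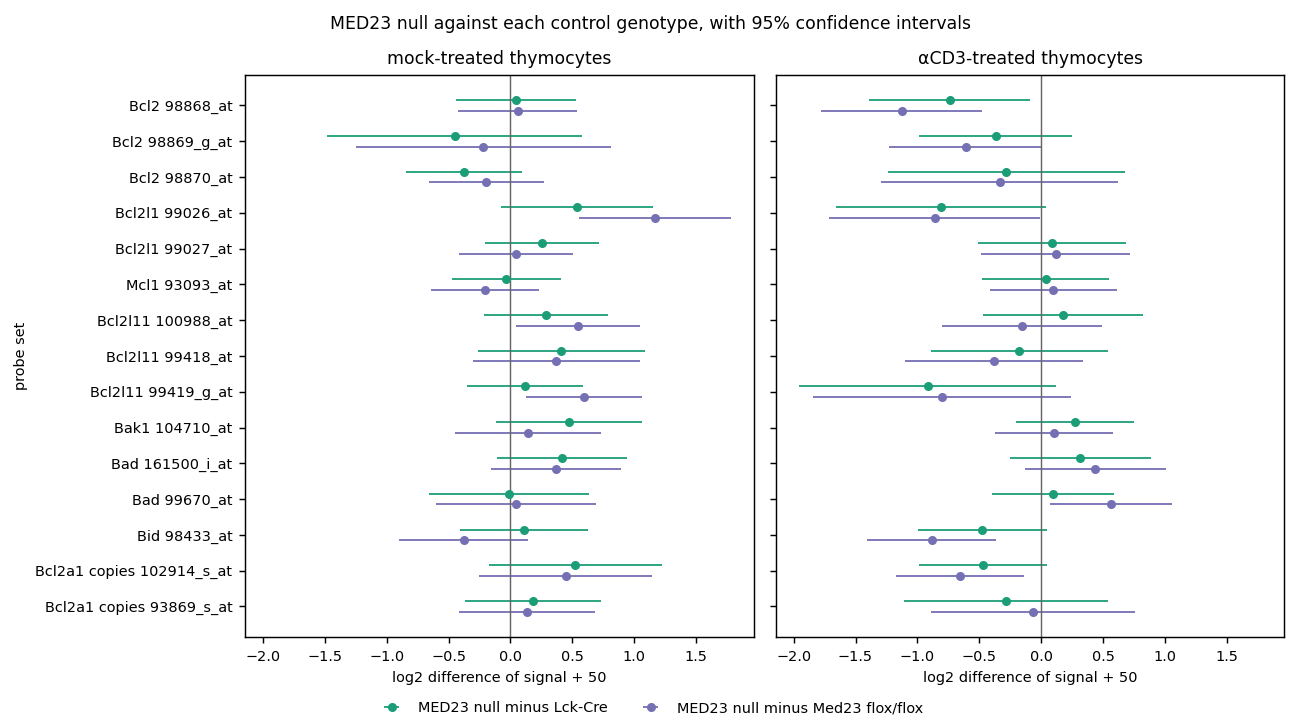
MED23 null minus Lck-Cre and MED23 null minus Med23 flox/flox on the log2(signal + 50) scale for each probe set, in mock-treated (left) and αCD3-treated (right) thymocytes, with 95% confidence intervals from limma before any adjustment for many probe sets. After αCD3 the Bcl2 98868_at difference is -0.74 against Lck-Cre and -1.13 against Med23 flox/flox, and that of Bid -0.47 and -0.89.

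Other measurements moved with genotype in the same arrays. The summed signal of 7 markers of mature single positive thymocytes, a stage known for high BCL2, was 8371 to 12013 in control and 4492 to 4968 in null mock arrays, and 7507 to 9927 against 4692 to 5015 after αCD3, with 6 of the 7 genes lower in the null arrays than in every control in each treatment. Over all tested probe sets the null arrays were lower than every control for 8.44% in mock cells and 8.61% after αCD3, and higher for 9.27% and 6.9%. The 7 include Klf2, Cd52 and S1pr1. The paper reports lower Klf2 and Cd52, and a tendency to lower S1pr1, in isolated MED23 null CD4 single positive thymocytes. It also reports normal proportions of single positive cells in the thymus of such mice. Its assay of apoptosis in tissue sections (TUNEL) saw no difference from Lck-Cre controls in thymus or spleen, a measure other than RNA of cultured cells. Markers of double positive cells, 3 genes, summed to 51144 to 55610 in control and 36863 to 45151 in null mock arrays, with 2 of the 3 lower than in every control, and to 46296 to 50671 against 40147 to 43573 after αCD3. The 3 natural killer markers on the array summed to 1095 to 1554 against 3427 to 5092 in mock cells and 1436 to 1736 against 3330.4 to 4392 after αCD3, with Gzma higher in null arrays than in every control and Ncr1 under the minimum signal. Prf1, the remaining marker, overlapped the controls in each treatment, and its null minus control difference after αCD3 was below 0. The gap in these sums was thus seen at Gzma alone. The 7 myeloid markers summed to 2053 to 3545 against 3328 to 3475, and the 2 erythroid ones to 6153 to 16590.1 against 14711 to 37029, in mock cells. After αCD3 the erythroid sums were 6114 to 15245 in controls and 15652 to 38196 in null mice and did not overlap, with 1 of the 2 genes above every control, while the myeloid sums overlapped. For 5 B cell markers the mock sums were 2337 to 2848 against 2579.5 to 2982, and for 4 epithelial ones, of which Krt8, Krt5 and Epcam were under the minimum signal, 160.3 to 319.7 against 221 to 293. The 5 T-lineage markers were present throughout, and their mock sums overlapped, at 31967 to 38051 against 34238 to 36649. Cd4 was above every control in each treatment, at 5374 and 4965 against 3959 to 4513 in mock cells. After αCD3 Thy1 was above every control, at 10884 and 14085 against 7655 to 9900. Cd8a was then below every control, at 8140 and 8030 against 8273 to 9942. Cd3e and Cd3g overlapped in each treatment. The 3' to 5' signal ratio of the actin control was 1.90 and 1.61 on the null αCD3 arrays and 1.35 to 1.41 on those of the controls. In mock arrays it overlapped, at 1.44 and 1.63 against 1.35 to 1.60. That of the GAPDH control after αCD3 was 0.636 and 0.766 against 0.599 to 0.648, so 1 null array lay within the controls. The part of these differences in the values of Bcl2, the Bcl2a1 copies and the other members was not tested.

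The probe sets whose log2 signal ran most like the 2 called ones over the 12 arrays were taken from those with a known symbol. For Bcl2 98868_at they were Rrad (r = 0.957), Dusp2 (r = 0.942) and Egr1 (r = 0.935). For Bcl2a1 102914_s_at they were Egr2 (r = 0.962), Nfatc1 (r = 0.938) and Nfkbiz (r = 0.930). Dusp2 encodes a phosphatase of MAP kinases, and Egr1 and Egr2 encode zinc-finger transcription factors made early after receptor stimulation. In control mice Egr1 itself was higher after αCD3 by 2.17 on the log2 scale (adjusted p = 0.0521), and in null mice by 0.83 (adjusted p = 0.963). These correlations are over arrays that share treatments and mice, and the genes were chosen for them, so they describe likeness only.

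Around the members stand 54 other listed genes of the cell death machinery: further family members, caspases and their inhibitors, death receptors and the kinases and adaptors that act on the family. Of these, 43 were on the array and 42 were tested, and limma called none in either direction in the control response, the null response, the difference in response or null minus control in either treatment. At an unadjusted p under 0.05 in the control response 3 of the 42 were higher after αCD3 (Birc3, Cycs and Tnfrsf1b) and 1 was lower (Bik). This is near the share of all tested probe sets at that level, 7.78% with both directions together. The median control response of the 42, at 1 probe set a gene, was -0.01 on the log2 scale, and that of the 7 member genes at their brightest probe set was also -0.01, from -0.15 to 0.53.

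Birc3, which encodes an inhibitor of apoptosis protein that acts in NF-κB signalling, came closest to the threshold. Its ratio was 2.10, 2.21, 2.07 and 1.54 in controls and 1.37 and 1.64 in null mice, with a control response of 0.88 on the log2 scale (SE 0.13, adjusted p = 0.0836). Cycs, which encodes the cytochrome c released from mitochondria, was higher by 0.58 in controls (adjusted p = 0.615), and Tnfrsf1b, a receptor for TNF, by 0.41 in controls (adjusted p = 0.369) and 0.41 in null mice. Bik, a BH3-only gene, was lower after αCD3 in all 4 control mice, at -0.84 (adjusted p = 0.623), with null ratios of 0.578 and 5.32 that pointed in opposite directions. In mock cells Fadd, the adaptor of death receptors, read 279.8, 265, 304 and 314 in controls and 447 and 497 in null mice (log2 difference 0.61, adjusted p = 0.386). Bok, a relative of Bax and Bak1, read 286, 253, 284 and 239 against 398 and 365 (0.45, adjusted p = 0.561). Both were higher in the null mock arrays than in every control, and neither was called. Endog was also higher there, beside 9.27% of all tested probe sets. Birc2, Ywhaz and Vdac2 were lower than in every control, beside 8.44%.

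**Figure D4:**
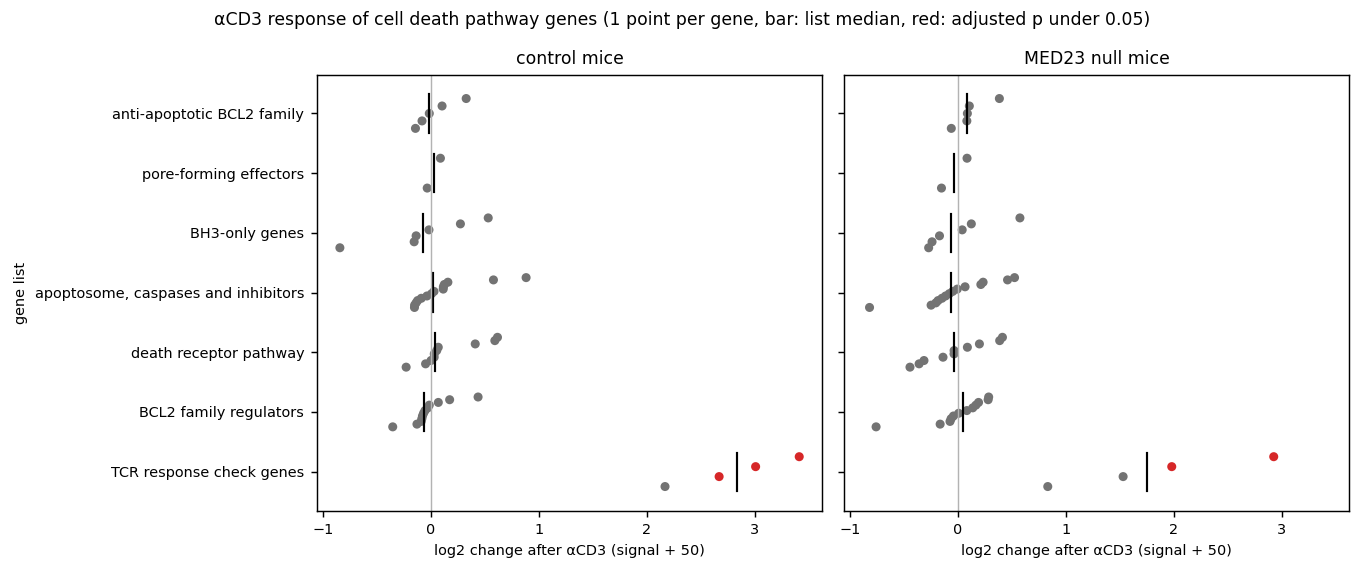
log2 change after αCD3 of the tested genes in each cell death list, with 1 point per gene (the probe set with the highest mean signal), in control mice (left) and MED23 null mice (right). The black bar is the list median and red marks an adjusted p under 0.05. The red points are Nr4a1, Cd5 and Egr2 in controls and Nr4a1 and Cd5 in null mice, and Bcl2 is shown here by 98870_at, its brightest probe set.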

How the data were processed

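The members, gene lists and markers were chosen with earlier results of these data known. Total RNA of 12 samples was hybridised to Affymetrix mouse arrays. The authors deposited 1 intensity per probe set and array, the MAS5 signal named in the submitters' processing notes, with no detection calls used here. These intensities were rescaled to a common 2% trimmed mean, which changed no array by more than 0.00603%, and 66 control probe sets were left out. Probe sets were named from the platform annotation: 10855 had 1 symbol, 396 several and 1237 none. Every member probe set is named, with up to 4 genes of each other list by size of change and the 3 probe sets most like each called member.

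The αCD3 response was tested with limma 3.58.1 in R 4.3.3 on the 6 within-mouse differences of log2(signal + 50), control and null sharing 1 spread, and genotypes on the 6 arrays of each treatment, with Benjamini-Hochberg adjustment over 9478 probe sets and a threshold of 0.05. Both arrays of a mouse carry its ID in the labels, and their deviations from the group means correlated at 0.0940, 0.149 and 0.0610. Replicates were separate mice. Other pseudocounts, signal filters, scalings, an intensity trend, unpaired and random-block fits, each control genotype alone and leaving out each mouse were tried. The scripts were tested on simulated data. The number of arrays, 4 control and 2 null a treatment, limits the precision.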

Additional observations from a re-analysis of the deposited data

Results flagged for a closer look

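In the 4 control arrays after αCD3, Bcl2l11 99418_at read 898 in Med23flox mouse 1 and 666 to 696 in the others. The gap to the nearest array was 0.871 of the whole range, the only such gap among 45 groups of 4 tested, of which chance flags about 1 in 20. This is the array with the high lower quartile of signal.

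Bcl2l11 99419_g_at was higher after αCD3 in all 4 control mice and lower in both null mice. The difference in response was -1.21 on the log2 scale (limma adjusted p = 0.809). Bid 98433_at showed the same opposition, with a difference of -0.55 (limma adjusted p = 0.955).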

How the results depend on the processing

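Among the 13 member probe sets, 1 was called for the αCD3 response in control mice. The count was 2 with a pseudocount of 100, with a minimum mean signal of 200, with no replicate block (mock and αCD3 arrays of a mouse unpaired) and with the mouse as a random block. The second probe set was Bcl2 98869_g_at, with adjusted p from 0.00695 to 0.0496. The count was 0 with an intensity trend and with the Lck-Cre or the Med23flox controls only, and 0 to 0 when each mouse was left out in turn. Over all tested probe sets the calls for this response were 14, and 0 to 61 under the alternatives. The Bcl2a1 102914_s_at call was lost with an intensity trend (adjusted p = 0.0833), with Lck-Cre controls only (0.348) and with Med23flox controls only (0.524), and Bcl2a1 93869_s_at passed unpaired (0.0346) and with the mouse as a random block (0.0228). The cause was not tested. No count of members called by limma changed in any other comparison. Of 2295 alternative values for 150 results, 97 lay on the other side of 0, none of them for a called value or one above 2 standard errors. Arrays of the same replicate number in different genotypes correlated at -0.01 to 0.12. This range overlapped that of arrays of 1 mouse, 0.0610 to 0.149, so the pairing by mouse rests on the labels. The counts without Med23flox mouse 1 were chosen after seeing the data. Dim probe sets, Bcl2 98868_at and 98869_g_at and Bcl2l1 99026_at, were under the minimum signal in some groups.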
